A study of Mus musculus with 24 samples.

Results

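The 9 genes described here move zinc across membranes or bind it in the cell. They are the zinc exporters and vesicle loaders Slc30a1, Slc30a2, Slc30a4, Slc30a5 and Slc30a7, the importers Slc39a8 and Slc39a14, and the metallothioneins Mt1 and Mt2. They were taken by symbol from a table of 32544 rows, and all 9 were found and passed the filter on low values (above 1 CPM, the usual count scaled to library size, in at least 3 mice). The series measured polyadenylated RNA of inguinal mammary glands from mice of 2 genotypes, labelled BL/6 NZB and BL/6 C57, here NZB and C57. Lines named this way share a BL/6 nuclear background and carry the mitochondrial DNA of the NZB or the C57 strain. Glands came from NZB and C57 mice that were not lactating or were at day 8, 14 or 21 of lactation, which makes 8 groups of 3 mice and 24 mice in all. The deposited table is named for a first pregnancy. The labels give no ages, and nothing beyond genotype and stage separates the groups in the labels.

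Milk carries zinc to the young, and the secretory cells of the gland take it up from blood and pass it into vesicles. Members of the Slc39 (ZIP) family bring zinc into the cytosol, while members of the Slc30 (ZnT) family carry it out of the cytosol, either across the plasma membrane or into vesicles and the Golgi apparatus. Metallothioneins are small cysteine-rich proteins that bind zinc, and they are transcribed with Slc30a1 through metal response elements when the zinc-sensing factor Mtf1 is active.

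Reads in genes were recovered from the values and averaged over the 2 columns of a mouse. They numbered 14813932 to 24252986 per lactating mouse and 7031493 to 15884133 per non-lactating mouse. The lowest of these, in C57 non-lactating mouse 2, is the mean of columns with very unequal reads. The 19 milk protein genes held 61.9 to 76.6% of reads in lactating glands except those of NZB mice on day 21, where they held 18.04 to 30.3%, and 0.472 to 1.98% in non-lactating glands. Levels are therefore given as non-milk CPM, which is CPM recalculated without those 19 genes, and folds are log2 differences of (non-milk CPM + 1). On this scale the median of all 16162 tested genes moved by -0.33 to -0.06 between lactating and non-lactating glands, against -1.81 to -0.40 on the scale as deposited, so a gene moderately above 0 on the first scale can be below 0 on the second. NZB non-lactating mice 2 and 3 stood apart in lymphocyte genes: the summed level of 6 B cell markers was 12.7, 476 and 1059 non-milk CPM in mice 1, 2 and 3, against 5.55 to 107 in the other groups. The C57 non-lactating mouse 3 carries an NZB genotype tag and a C57 title and was kept as C57. All 7 luminal epithelial markers (Krt8, Krt18, Krt19, Epcam, Cldn3, Cldn7 and Elf5) were detected in every mouse. Their sum was 1296 to 1963 non-milk CPM in lactating glands, against 41.7 to 233 in NZB and 411 to 866 in C57 non-lactating glands. In whole glands, fewer cells of a type and less RNA per cell cannot be told apart. The labels do not say that mice of a group came from separate litters or days, so the p-values measure the spread between these mice.

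The promoters of the metallothioneins and of Slc30a1 are shown because these 3 genes are known targets of Mtf1. Each window holds 250 bases before and 30 after the RefSeq start, 5′ to 3′ on the strand of the gene, from RefSeq on GRCm38.p6. Capitals mark the core of the metal response element, TGCACNC or TGCGCNC, searched on both strands. The windows lie at chr8:94178839-94179118 (Mt1), chr8:94172368-94172647 (Mt2) and chr1:191906531-191906810 (Slc30a1), all on the plus strand.
Mt1: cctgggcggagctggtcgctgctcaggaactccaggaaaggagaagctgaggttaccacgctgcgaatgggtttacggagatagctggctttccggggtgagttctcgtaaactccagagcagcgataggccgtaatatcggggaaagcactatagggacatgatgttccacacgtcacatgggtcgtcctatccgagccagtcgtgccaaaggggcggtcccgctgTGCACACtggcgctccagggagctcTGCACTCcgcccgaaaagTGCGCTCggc
Mt2: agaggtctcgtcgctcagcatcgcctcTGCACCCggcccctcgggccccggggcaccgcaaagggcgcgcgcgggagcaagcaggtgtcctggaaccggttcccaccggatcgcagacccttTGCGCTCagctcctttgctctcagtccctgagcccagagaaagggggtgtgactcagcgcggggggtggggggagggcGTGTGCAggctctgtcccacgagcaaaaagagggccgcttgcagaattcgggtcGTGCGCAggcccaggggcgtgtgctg
Slc30a1: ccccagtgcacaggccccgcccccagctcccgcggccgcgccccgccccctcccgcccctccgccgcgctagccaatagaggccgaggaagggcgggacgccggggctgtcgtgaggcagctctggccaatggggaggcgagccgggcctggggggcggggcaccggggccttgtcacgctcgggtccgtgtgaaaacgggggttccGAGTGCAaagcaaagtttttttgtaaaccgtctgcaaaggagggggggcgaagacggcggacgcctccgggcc

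Windows were found for 8 of the 9 genes, and none for Slc39a14. Mt2 held 4 matches, Mt1 and Slc30a4 held 3 each, Slc30a2 held 2, and Slc30a1 and Slc30a5 held 1 each. The Mt1 matches at bases 3 to 9 and 21 to 27 and the Mt2 match at 5 to 11 lie after the RefSeq start. Relative to the GENCODE start the RefSeq start lies at 7 for Mt1 and -46 for Mt2, so that Mt2 match is before the GENCODE start. These places rest on annotated starts, and where transcription began was not measured. The Slc30a4 match at -6 to 1 spans it. The RefSeq start of Slc30a2 lies 285 bases after the GENCODE start of the gene, so its window and both matches are inside the gene. Slc39a8 has 2 RefSeq starts: the window at the GENCODE start held 0 matches, and that of a start 378 bases further on, wholly inside the gene, held 1. Slc30a7 held 0. Among 32544 windows of the same length, 24.2% held at least 1 match, 6.41% at least 2, 1.75% at least 3 and 0.409% at least 4. The letters TTCNNNGAA, the pattern bound by STAT factors, were in 0 of the 9 windows of these genes and in 7.86% of all windows. Mt2 and Mt1 are neighbours, with 5513 bases between the end of Mt2 and the start of Mt1.

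Lactating glands were first compared with non-lactating glands of the same genotype. A gene was called when limma gave an adjusted p (Benjamini-Hochberg over the 16162 genes of a comparison) under 0.05. In NZB glands 6 of the 9 genes were higher and 0 lower on day 8, where 47.5% of all genes were called in either direction (15.1% higher). There 5 were higher with no filter on low values or with those 2 groups fitted alone. By limma voom, or without the 50 most abundant genes in the total, 7 were. On day 14 in NZB 8 genes were higher and 0 lower, where 46.5% of all genes were called (15.9% higher). On day 21 in NZB 8 were again higher and 0 lower, where 32.9% of all genes were called (17.3% higher). In C57 glands 6 genes were higher and 1 lower on day 8, where 44.9% of all genes were called (13.4% higher and 31.5% lower). All 9 were higher in C57 on day 14, where 39.1% were called (14.3% higher), and on day 21, where 40.0% were called (14.2% higher). The median fold of the 9 genes was 1.54, 2.79 and 2.86 on days 8, 14 and 21 in NZB, and 1.19, 2.77 and 2.57 in C57, beside medians of all genes between -0.33 and -0.06. With milk genes kept in the total, as deposited, these calls split into 4 higher and 2 lower on day 8, 3 and 3 on day 14 and 6 and 0 on day 21 in NZB, and into 3 and 5, 3 and 2, and 3 and 2 in C57. In all, 47 of the 54 folds were called, and 43 without NZB non-lactating mice 2 and 3. In Slc30a2, Slc30a4, Slc30a7, Slc39a8 and Slc39a14 every one of the 18 lactating mice was above every one of the 6 non-lactating mice, which held for 5.22% of all tested genes.

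**Figure D1:**
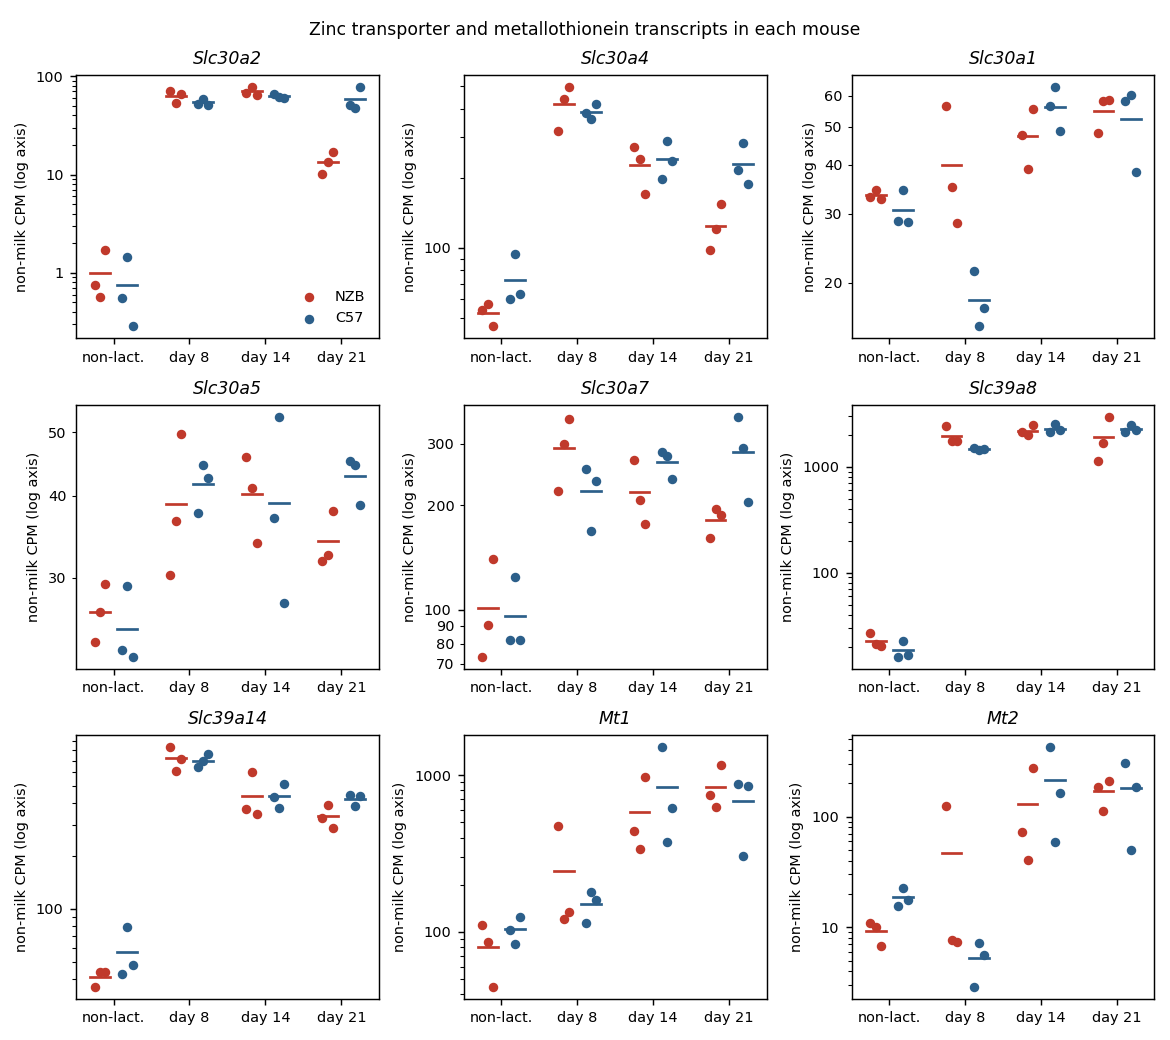
Non-milk CPM (log axis) of the 9 genes in each of the 24 mice by stage. Points are mice 1, 2 and 3 from left to right within a group, bars are group means, and NZB stands left of C57. Slc39a8 lay at 1122 to 2965 in lactating mice, against 16.1 to 26.9 in non-lactating mice.

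**Figure D2:**
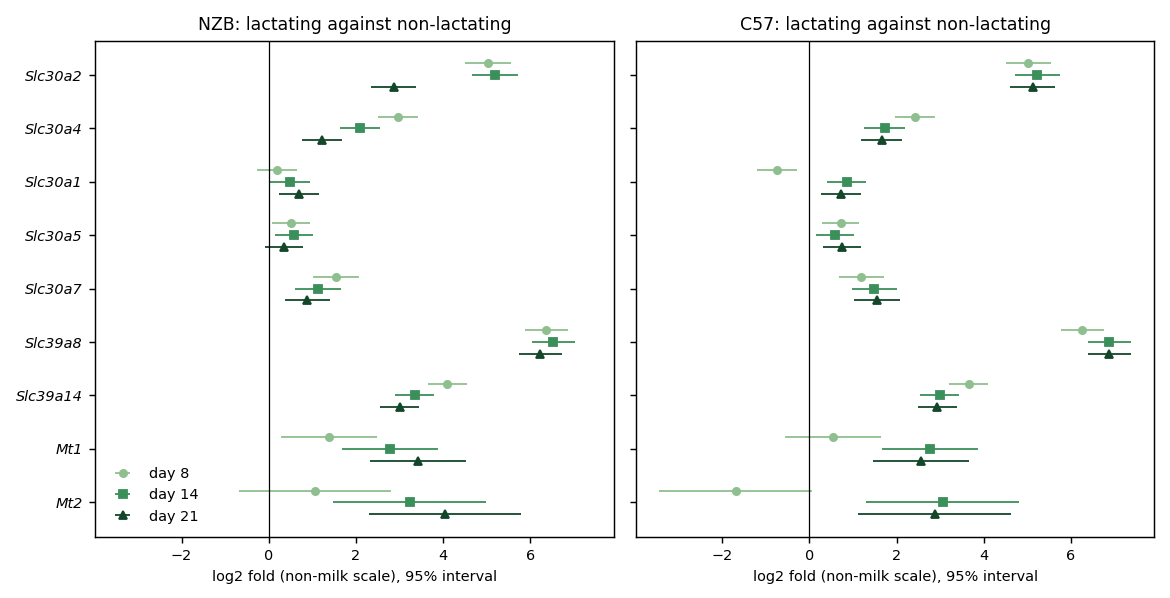
Log2 folds of lactating over non-lactating glands with 95% intervals from limma, on the non-milk scale, for NZB (left) and C57 (right). Slc39a8 had folds of 6.22 to 6.88 and Slc30a5 of 0.35 to 0.76, and on the deposited scale the folds of Slc30a5 were below 0 in all 6 comparisons.

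Among the importers, Slc39a8 had the greatest fold of the 9 genes in all 6 comparisons with non-lactating glands, on both scales. Slc39a8, which encodes ZIP8 and carries zinc and manganese (ENSMUSG00000053897.15, chr3:135825279-135888572, plus strand, GRCm38), had 26.9, 21.4 and 20.2 without lactation, 2402, 1735 and 1753 on day 8, 2125, 1986 and 2457 on day 14, and 1122, 1657 and 2965 on day 21 in NZB mice, in non-milk CPM. In C57 mice its level was 16.1, 22.7 and 16.8 without lactation, 1518, 1434 and 1473 on day 8, 2118, 2519 and 2205 on day 14, and 2119.7, 2463 and 2230.3 on day 21. Lactating and non-lactating mice were far apart, and among NZB mice on day 21 mouse 3 held the greatest level of all 24 and mouse 1 the lowest of the lactating mice. Slc39a8 rose by 6.36 (SE 0.24, adjusted p = 1.12e-14), 6.53 (SE 0.24, adjusted p = 8.40e-15) and 6.22 (SE 0.24, adjusted p = 7.10e-14) on days 8, 14 and 21 in NZB on the log2 scale (limma). In C57 it rose by 6.25 (SE 0.24, adjusted p = 7.97e-15), 6.88 (SE 0.24, adjusted p = 1.18e-15) and 6.87 (SE 0.24, adjusted p = 1.20e-15). The ratio of group means was 86.0, 95.9 and 83.9 in NZB and 79.6, 123 and 123 in C57. These rises held on the deposited scale, where they were 4.29 to 5.83. Per 1000 CPM of summed luminal markers, the median level of Slc39a8 was 1037 on day 8 in NZB against 310.2 without lactation, and 1039 on day 8 in C57 against 39.2 without lactation.

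Slc39a14, which encodes ZIP14 and carries zinc, manganese and iron (ENSMUSG00000022094.15, chr14:70303469-70351425, minus strand), had 36.0, 43.9 and 43.4 without lactation, 837, 612 and 718 on day 8, 372, 601 and 347 on day 14, and 330.4, 393 and 289 on day 21 in NZB mice. C57 mice had 42.6, 79.0 and 47.7 without lactation, 642, 697 and 759 on day 8, 434, 378 and 513 on day 14, and 444, 384 and 441 on day 21. Its group mean was highest on day 8 in both genotypes, and all lactating mice were above all non-lactating mice. The log2 fold on day 8 was 4.10 (SE 0.22, adjusted p = 1.79e-12) in NZB and 3.66 (SE 0.22, adjusted p = 1.19e-11) in C57 (limma). By day 21 it was 3.00 (SE 0.22, adjusted p = 7.39e-10) in NZB and 2.93 (SE 0.22, adjusted p = 5.26e-10) in C57, and it stayed above 0 on the deposited scale at 1.14 to 2.61 over the 6 comparisons. Relative to 1000 CPM of summed luminal markers its NZB medians were 425, 222 and 229 on days 8, 14 and 21. Without lactation the NZB median was 415 (range 188 to 1040.5). The C57 medians were 484, 297 and 254, against 104 without lactation. On the same measure the day 8 medians of Slc30a1, Slc30a5, Slc30a7, Mt1 and Mt2 were below the medians without lactation in both genotypes. From day 8 to day 14 Slc39a14 differed by -0.75 in NZB (adjusted p = 0.137, limma) and -0.67 in C57 (adjusted p = 0.121), with no overlap between the days in either genotype. The first of these passed without NZB day 14 mouse 2 (-0.99, adjusted p = 0.0338).

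The vesicle loaders of the secretory cell followed. Slc30a2 encodes ZnT2, which carries zinc into secretory vesicles and whose human counterpart is mutated in mothers with zinc-poor milk (ENSMUSG00000028836.14, chr4:134343181-134354484, plus strand). NZB mice had 0.759, 0.571 and 1.69 without lactation, 70.9, 53.0 and 65.5 on day 8, 68.2, 77.7 and 65.1 on day 14, and 10.1, 13.5 and 16.8 on day 21 non-milk CPM. C57 mice had 0.552, 1.43 and 0.285 without lactation, 52.2, 58.7 and 51.4 on day 8, 66.5, 60.8 and 60.3 on day 14, and 51.5, 47.8 and 78.6 on day 21. The gene was close to silent without lactation, where 4 to 16 reads stood behind a value, and every lactating group except NZB on day 21 lay between 47.8 and 78.6. Its log2 fold was 5.03 (SE 0.25, adjusted p = 6.46e-13), 5.19 (SE 0.25, adjusted p = 4.64e-13) and 2.86 (SE 0.25, adjusted p = 1.36e-08) on days 8, 14 and 21 in NZB (limma). The C57 folds were 5.02 (SE 0.25, adjusted p = 6.45e-13), 5.23 (SE 0.25, adjusted p = 3.00e-13) and 5.12 (SE 0.25, adjusted p = 4.29e-13). Because the added 1 CPM understates folds of genes near 0, the ratios of group means were larger, at 62.8, 69.9 and 13.4 in NZB and 71.5, 82.7 and 78.4 in C57.

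Slc30a4 encodes ZnT4, another vesicle transporter, and its loss is the cause of the lethal milk trait of mice (ENSMUSG00000005802.12, chr2:122681233-122702663, minus strand). In NZB mice it had 53.7, 57.2 and 45.9 without lactation, 321, 442 and 498 on day 8, 274, 242 and 171 on day 14, and 97.9, 121 and 155 on day 21. In C57 mice it had 60.5, 94.5 and 63.0 without lactation, 382, 360.3 and 419 on day 8, 198, 289 and 237 on day 14, and 218, 285 and 188 on day 21. Day 8 was the highest stage in both genotypes, with all 6 mice above those of days 14 and 21. The log2 fold of NZB glands over non-lactating ones was 2.97 (SE 0.22, adjusted p = 5.98e-10) on day 8, 2.09 (SE 0.22, adjusted p = 1.49e-07) on day 14 and 1.22 (SE 0.22, adjusted p = 0.000231) on day 21 (limma). C57 glands had 2.42 (SE 0.22, adjusted p = 1.64e-08), 1.73 (SE 0.22, adjusted p = 1.96e-06) and 1.66 (SE 0.22, adjusted p = 3.24e-06), the last 2 of which lay at -0.051 and -0.13 on the deposited scale. Also not called on that scale were day 14 in NZB (0.27, adjusted p = 0.269, limma) and day 8 in C57 (0.47, adjusted p = 0.0618). Per 1000 CPM of summed luminal markers its median was 251 on day 8 in NZB against 619 (range 245 to 1099) without lactation. In C57 it was 261 on day 8 against 147 without lactation.

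The Golgi transporters moved least among the Slc30 vesicle genes on the non-milk scale. On the deposited scale this order held on day 21 in NZB alone. Slc30a4 moved least on that scale on day 14 in NZB (0.27). It also did so on days 8, 14 and 21 in C57 (0.47, -0.051 and -0.13). On day 8 in NZB Slc30a5 (-1.32) moved more than Slc30a4 (1.04). Slc30a5 and Slc30a7 encode ZnT5 and ZnT7, which supply zinc to enzymes such as alkaline phosphatase in the early secretory pathway (ENSMUSG00000021629.10, chr13:100802648-100833427, minus strand, and ENSMUSG00000054414.4, chr3:115938973-116007406, minus strand). Slc30a7 lay at 161 to 359 non-milk CPM in the 18 lactating mice (median 236), against 73.4 to 140 in the 6 non-lactating mice (median 86.0). Its log2 folds were 1.54 (SE 0.25, adjusted p = 2.73e-05), 1.13 (SE 0.25, adjusted p = 0.000873) and 0.88 (SE 0.25, adjusted p = 0.00892) in NZB on days 8, 14 and 21 (limma), of which day 21 lost its call without NZB non-lactating mouse 1 (0.68, adjusted p = 0.0525) and the first 2 were below 0 on the deposited scale. C57 folds were 1.19, 1.49 and 1.55, all called and all below 0 on the deposited scale. Slc30a5 lay at 27.4 to 52.8 in lactating mice (median 38.3), against 22.7 to 29.4 in non-lactating mice (median 25.2), and the ranges overlapped. Its folds of 0.35 to 0.76 were called on day 14 in NZB and on all 3 days in C57, and were below 0 on the deposited scale in all 6 comparisons (-0.032 on day 21 in NZB). The day 14 calls were lost on leaving out NZB non-lactating mouse 1 or 2 or NZB day 14 mouse 1 or 2 in NZB, where the fold was then 0.48 to 0.58. In C57 they were lost without C57 non-lactating mouse 1 or 3 or C57 day 14 mouse 1 or 2, with folds of 0.34 to 0.59. The day 8 fold in NZB (0.51, adjusted p = 0.0504) became a call without NZB non-lactating mouse 3 (0.58) or NZB day 8 mouse 1 (0.66).

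Slc30a1, Mt1 and Mt2 had their lowest lactating group mean on day 8 in both genotypes. The plasma membrane exporter Slc30a1 encodes ZnT1 (ENSMUSG00000037434.7, chr1:191906767-191913247, plus strand) and had 33.0, 34.5 and 32.7 without lactation, 56.6, 35.1 and 28.4 on day 8, 47.6, 39.1 and 55.7 on day 14, and 48.2, 58.1 and 58.7 on day 21 non-milk CPM in NZB. In C57 it had 28.8, 34.6 and 28.6 without lactation, 21.4, 15.5 and 17.2 on day 8, 56.6, 63.4 and 48.9 on day 14, and 58.2, 60.2 and 38.4 on day 21. The 3 C57 mice on day 8 were the lowest of all 24, and those on day 14 were all above those of day 8. In C57 it fell on day 8 by 0.74 (SE 0.22, adjusted p = 0.00842) on the log2 scale and rose by 0.85 (SE 0.22, adjusted p = 0.00334) on day 14 and 0.73 (SE 0.22, adjusted p = 0.0105) on day 21 against non-lactating glands (limma), both rises being falls on the deposited scale. The day 21 call was lost without C57 day 21 mouse 2 (0.61, adjusted p = 0.0594). In NZB the fold was 0.20 on day 8 (adjusted p = 0.489, limma) and 0.48 on day 14 (adjusted p = 0.0767), both below 0 on the deposited scale. It was 0.70 (SE 0.22, adjusted p = 0.0174) on day 21 in NZB (limma), a call lost without NZB day 21 mouse 2 (0.66) or mouse 3 (0.65) or without NZB non-lactating mice 2 and 3 (0.71), and 0.31 and not called on the deposited scale.

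Mt1 (ENSMUSG00000031765.8, chr8:94179082-94180327, plus strand) had 111, 85.7 and 44.6 without lactation, 474, 121 and 134 on day 8, 438, 339 and 979 on day 14, and 744, 627 and 1164 on day 21 in NZB mice. In C57 mice it had 103, 84.1 and 124 without lactation, 114, 181 and 160.1 on day 8, 1516, 373 and 617 on day 14, and 885, 303 and 852 on day 21. Every mouse of days 14 and 21 was above every non-lactating mouse, and on day 8 NZB mouse 1 stood apart from the other 2. In NZB the log2 fold was 1.38 (SE 0.53, adjusted p = 0.0366) on day 8, 2.79 (SE 0.53, adjusted p = 0.000201) on day 14 and 3.42 (SE 0.53, adjusted p = 3.62e-05) on day 21 (limma). The day 8 fold was below 0 on the deposited scale and lost its call without NZB day 8 mouse 1 (0.75, adjusted p = 0.264) or NZB non-lactating mouse 2 (1.47) or 3 (1.01). C57 folds were 0.53 on day 8 (adjusted p = 0.443, limma), which was -1.40 on the deposited scale, then 2.77 (SE 0.53, adjusted p = 0.000219) and 2.57 (SE 0.53, adjusted p = 0.00047). The folds of days 14 and 21 on the deposited scale were 0.96 and 3.03 in NZB and 0.98 and 0.77 in C57, of which NZB day 21 alone was called.

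Mt2 (ENSMUSG00000031762.7, chr8:94172664-94173568, plus strand) had 10.8, 10.03 and 6.75 without lactation, 124, 7.73 and 7.36 on day 8, 72.7, 40.2 and 274 on day 14, and 186, 113 and 211 on day 21 in NZB mice. C57 mice had 15.5, 22.7 and 17.5 without lactation, 2.90, 7.23 and 5.68 on day 8, 426, 58.4 and 164 on day 14, and 305, 49.4 and 184 on day 21. On day 8 the 3 C57 mice, with 17 to 35 reads each, were below all 3 non-lactating C57 mice. The C57 day 8 fold was -1.69 (SE 0.84, adjusted p = 0.108) with all 24 mice in the fit, and -1.69 with an adjusted p of 0.00135 in a limma fit of those 2 groups alone. On days 14 and 21 Mt2 rose by 3.23 (SE 0.84, adjusted p = 0.00355) and 4.04 (SE 0.84, adjusted p = 0.000756) in NZB and by 3.06 (SE 0.84, adjusted p = 0.00579) and 2.87 (SE 0.84, adjusted p = 0.00879) in C57 (limma). The last of these was lost without C57 day 21 mouse 1 (2.32, adjusted p = 0.052), and the NZB day 14 call was lost without NZB non-lactating mice 2 and 3 (2.99). These 4 folds on the deposited scale were 1.45, 3.65, 1.29 and 1.11, of which NZB day 21 alone was called, and the C57 day 8 fold was called at -3.08. Mt2 amounted to 2.54 to 4.004% of Mt1 on day 8 in C57, and to 9.75 to 34.4% in all other groups except NZB day 8, where it was 5.48 to 26.3%.

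The metallothioneins varied widely between mice of a group. The within-group SD of log2 levels was 0.27 to 2.24 for Mt2 and 0.28 to 1.09 for Mt1, against 0.04 to 0.71 for the 7 transporters. In 7 of the 8 groups the mouse with the greatest Mt1 also had the greatest Mt2, and in 3 of 8 it had the greatest Slc30a1. The same mouse led for Slc39a4, an importer outside the 9 genes, in 5 of 8 groups. In NZB day 8 mouse 1 all 4 were high, with 474, 124, 56.6 and 20.3 non-milk CPM of Mt1, Mt2, Slc30a1 and Slc39a4. Markers of immune cells moved with some of these mice. The summed level of 6 macrophage markers was 119, 126 and 768 in NZB mice 1, 2 and 3 on day 14 and 255, 122 and 137 in C57 mice on day 14, and mouse 3 in NZB and mouse 1 in C57 had the greatest Mt1 and Mt2. In NZB day 8 mouse 1 that sum was 154, against 119 and 92.4 in mice 2 and 3. B cell markers went the other way in NZB non-lactating glands, where their sum was 12.7 in mouse 1 and 1059 in mouse 3. Mt1 and Mt2 together had 122 and 51.3 non-milk CPM in those 2 mice. The part of immune cells in the metallothionein levels was not tested.

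**Figure D3:**
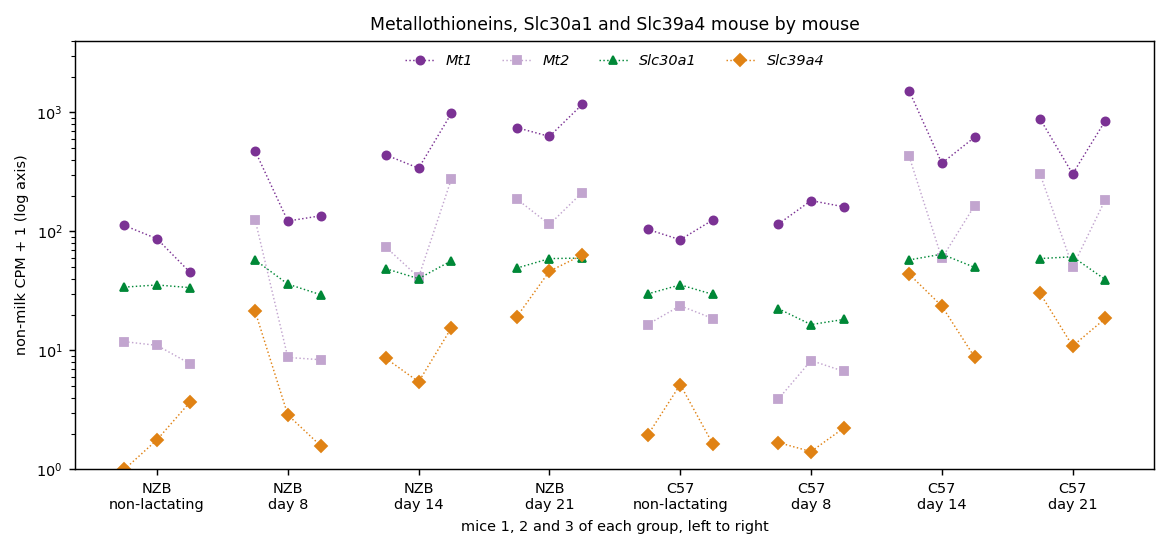
Non-milk CPM plus 1 (log axis) of Mt1, Mt2, Slc30a1 and Slc39a4 in mice 1, 2 and 3 of each group, from left to right. Dotted lines join the mice of a group only to guide the eye. NZB day 8 mouse 1 stood above the other 2 mice of its group in all 4 genes, with 124 CPM of Mt2 against 7.73 and 7.36.

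Levels of the genes were compared with each other after division by transcript length, as non-milk CPM per kb (mean ± SD, n = 3). On day 8 Slc39a8 led in both genotypes, with 556 ± 108 in NZB and 418 ± 11.9 in C57. Slc39a8 and Mt1 (443 ± 364) overlapped in NZB on day 8, while in C57 Mt1 had 276 ± 61.8 and did not reach it. Slc39a14 came next among the transporters with 147 ± 22.9 in NZB and 142 ± 11.8 in C57, then Slc30a4 with 76.9 ± 16.6 and 70.9 ± 5.40. Below them in both genotypes lay Slc30a7, Slc30a2, Slc30a5 and Slc30a1 in that order, each pair apart except Slc30a5 and Slc30a1 in NZB. On days 14 and 21 Mt1 had the greatest mean, from 1066 ± 628 in NZB on day 14 to 1539 ± 514 in NZB on day 21, but overlapped Slc39a8 in 3 of those 4 groups. Without lactation Mt1 led with 147 ± 61.2 in NZB and 189 ± 36.3 in C57, Slc30a2 was last with 0.319 ± 0.190 and 0.240 ± 0.190, and most neighbours between them overlapped.

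Stages of lactation were then compared within a genotype. From day 8 to day 14 in C57, 3 of the 9 genes were higher and 0 lower, where 2.23% of all genes were called. They were Mt2 at 4.75 (SE 0.84, adjusted p = 0.00302), Mt1 at 2.23 (SE 0.53, adjusted p = 0.0255) and Slc30a1 at 1.59 (SE 0.22, adjusted p = 0.000277), all by limma, and the day 14 mice were above the day 8 mice in each. The day 14 mean was 41.0 times that of day 8 for Mt2, 5.51 times for Mt1 and 3.12 times for Slc30a1. Slc30a1 kept its call in every alternative run, whereas Mt2 had an adjusted p of 0.0663 by limma voom. Mt1 lost its call on leaving out any C57 day 8 mouse or C57 day 14 mouse 1 or 3, with folds of 1.68 to 2.37, and on the deposited scale (2.38). With no filter on low values 2 genes were called higher instead of 3. The fit of the 2 groups alone called 4 higher and 2 lower, adding Slc39a8 (0.62), Slc30a4 (-0.69) and Slc39a14 (-0.67), and leaving the 50 most abundant genes out of the total gave 3 higher and 1 lower. In NZB the same step gave 0 calls among the 9 genes by limma and by limma voom, with 4 at an unadjusted p under 0.05, and 0.532% of all genes were called. Mt2 differed there by 2.17, and by 3.46 (adjusted p = 0.0429, limma) without NZB day 8 mouse 1.

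From day 14 to day 21 in NZB, 0 of the 9 genes were higher and 2 lower, where 22.3% of all genes were called and 6.16% were lower. Slc30a2 fell to 10.1, 13.5 and 16.8 non-milk CPM on day 21, against 68.2, 77.7 and 65.1 on day 14, a log2 difference by limma of -2.32 (SE 0.25, adjusted p = 1.36e-06). Slc30a4 differed by -0.87 (SE 0.22, adjusted p = 0.00823), with no overlap, but by 0.56 on the deposited scale, where 8 of the 9 genes were called higher and Slc30a2 alone lower. Slc39a8 differed by -0.30 (adjusted p = 0.38, limma), and by -0.68 (adjusted p = 0.0244) without NZB day 21 mouse 3. In C57 0 of the 9 genes were called from day 14 to day 21, by limma, by limma voom or at an unadjusted p under 0.05, and 0.0% of all genes were called, with 174 genes at an unadjusted p under 0.05. The intervals of these C57 differences were -0.63 to 0.41 for Slc30a2 and -1.93 to 1.57 for Mt2.

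NZB and C57 glands were then compared at each stage. Without lactation, on day 8 and on day 14, 0 of the 9 genes were called by limma or limma voom, where 5.41%, 0.0371% and 0.0371% of all genes were called, and 0, 2 and 0 of the 9 had an unadjusted p under 0.05. On day 8 Slc30a1 had 56.6, 35.1 and 28.4 non-milk CPM in NZB mice, against 21.4, 15.5 and 17.2 in C57 mice. The mice of the genotypes did not overlap, and the log2 difference was 1.06 (SE 0.22, adjusted p = 0.105) by limma. Without NZB day 8 mouse 3 it was 1.27 (adjusted p = 0.0397). Mt2 had 124, 7.73 and 7.36 in NZB, against 2.90, 7.23 and 5.68 in C57, and its difference of 1.80 (SE 0.84, adjusted p = 0.895) was 0.51 without NZB day 8 mouse 1. The NZB minus C57 difference in the day 8 effect was 0.93 (SE 0.31, adjusted p = 0.183) for Slc30a1 and 2.75 (SE 1.19, adjusted p = 0.355) for Mt2 (limma).

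On day 21, 0 of the 9 genes were higher and 2 lower in NZB, where 24.9% of all genes were called and 5.95% were lower. Slc30a2 had 10.1, 13.5 and 16.8 non-milk CPM in NZB mice, against 51.5, 47.8 and 78.6 in C57 mice. All 3 NZB mice were far below all 3 C57 mice, at 0.227 times the C57 mean, and the log2 difference was -2.05 (SE 0.25, adjusted p = 5.33e-06) by limma. It was also lower on the deposited scale, at -0.68 (adjusted p = 0.0286). Slc30a4 had 97.9, 121 and 155 in NZB, against 218, 285 and 188 in C57, with no overlap and a log2 difference of -0.88 (SE 0.22, adjusted p = 0.00615), which was 0.50 on the deposited scale. Slc30a7 differed by -0.62 (SE 0.25, adjusted p = 0.0733) and passed without C57 day 21 mouse 3 (-0.84, adjusted p = 0.0326). Slc39a8 differed by -0.36 (SE 0.24, adjusted p = 0.282) and passed without NZB day 21 mouse 3 (-0.73, adjusted p = 0.0136). Among the metallothioneins, Mt1 differed by 0.41 (SE 0.53, adjusted p = 0.602) and Mt2 by 0.22 (SE 0.84, adjusted p = 0.877), with intervals of -0.69 to 1.52 and -1.52 to 1.97. On the deposited scale 6 of the 9 were called higher and 1 lower, with a median of all genes of 1.35, against 0.29 on the non-milk scale.

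The difference between the genotypes in the effect of a stage was tested as an interaction. For Slc30a2 on day 21 against non-lactating glands, NZB had a fold of 2.86 and C57 one of 5.12, and their difference of -2.26 (SE 0.35, adjusted p = 0.000142) was called by limma, where 17.7% of all genes were. From day 14 to day 21 it changed by -2.32 in NZB against -0.11 in C57, which differ by -2.21 (SE 0.35, adjusted p = 0.000626), where 6.48% of all genes were called. On the deposited scale the 2 differences were -0.88 and -0.79 and not called. The other 8 genes were not called in either interaction, nor was any of the 9 for the effects of days 8 and 14, where 0.773% and 0.724% of all genes were called (2 and 0 of the 9 at an unadjusted p under 0.05, and 0 by limma voom). Without NZB day 21 mouse 3 the interaction of Slc39a8 for day 21 against non-lactating glands was called (-1.02, adjusted p = 0.0127). The deposited scale called 5 genes higher for day 21 against non-lactating glands and 6 for day 21 against day 14.

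Cell markers moved with the day 21 difference. The 7 luminal markers summed to 1441, 1601 and 1963 non-milk CPM in NZB mice 1, 2 and 3 and 1296, 1563 and 1734 in C57 mice, and these ranges overlapped. The 6 macrophage markers summed to 858, 903 and 1522 in NZB and 191, 128 and 148 in C57, and the 6 adipocyte markers to 944 to 2650 in NZB and 283 to 526 in C57, with 0 markers of these lists at 0. Per 1000 CPM of summed luminal markers the median of Slc30a2 was 8.46 in NZB and 39.7 in C57. The median of Slc30a2 without lactation was 8.74 in NZB (range 2.44 to 40.4) and 1.34 in C57 (range 0.692 to 1.65). The wide NZB range stands over luminal sums of only 41.7 to 233 non-milk CPM, so that median is a poor reference. For Slc30a4 the day 21 medians were 75.3 in NZB and 168 in C57. The part of the other cell types in the difference was not tested.

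**Figure D4:**
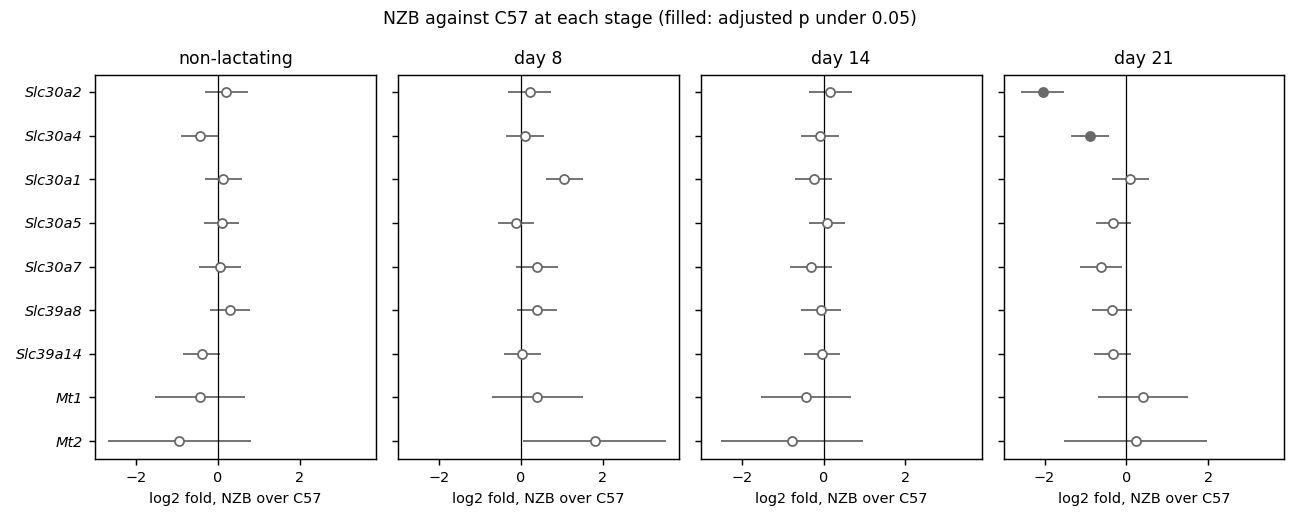
Log2 folds of NZB over C57 with 95% intervals from limma at each stage, on the non-milk scale, with filled points for an adjusted p under 0.05. Slc30a2 (-2.05) and Slc30a4 (-0.88) are filled on day 21 and no gene is filled at the other stages. On the deposited scale Slc30a4 on day 21 lay at 0.50.

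Other genes of zinc transport were taken from a list of 21, of which 15 passed the filter on low values, and Mt4 had 0 reads in all mice. In NZB 4 of 15 were higher and 2 lower on day 8, 6 and 3 on day 14, and 5 and 2 on day 21, beside 15.1%, 15.9% and 17.3% of all genes higher and 32.5%, 30.6% and 15.6% lower. On the deposited scale these splits were 1 and 12, 1 and 12, and 2 and 2. Tmem163, a zinc transporter of vesicles chosen here after its values were seen, was 1 of the lower genes on each day, and without NZB non-lactating mice 2 and 3 its folds were -0.30, 0.10 and 0.24 and not called. Leaving out 1 mouse of the groups compared ended the NZB calls of Slc30a6 (0.63 to 0.66), Slc39a4 (1.82 to 1.87) and Tmem163 (-1.52 to -0.95) on day 14, and of Slc39a1 (0.31 to 0.41), Slc39a10 (0.64 to 0.81) and Tmem163 (-1.39 to -0.82) on day 21. With the compared groups fitted alone Slc39a9 on day 21 was not called either (0.68, adjusted p = 0.059, limma). In C57 3 of 15 were higher and 1 lower on day 8, and 4 and 1 on days 14 and 21, against 1 and 11, 3 and 11, and 2 and 11 on the deposited scale. Of all genes in C57 13.4%, 14.3% and 14.2% were higher and 31.5%, 24.8% and 25.8% lower on the 3 days. Slc39a6, which encodes the importer ZIP6, rose by 3.19 on day 8 in NZB and 3.13 in C57 (adjusted p = 3.00e-11 and 5.54e-11, limma). Slc39a11, which encodes ZIP11, rose by 2.26 in NZB and 2.34 in C57, and on the deposited scale these folds were 0.41 and 0.47 and not called (adjusted p = 0.0883 and 0.0501, limma). Slc39a7, whose product ZIP7 releases zinc from the endoplasmic reticulum, rose by 0.99 in NZB and 1.43 in C57, which were -0.88 and -0.48 on the deposited scale. Slc39a13, which encodes ZIP13 and in humans is mutated in a connective tissue disorder, fell in both genotypes on that day, by 1.67 in NZB and 1.71 in C57. Fibroblast markers, 6 of 6 called lower on day 8 in each genotype, moved with it, and their part in it was not tested. Median levels of the zinc-sensing factor Mtf1 were 34.8 non-milk CPM in the 18 lactating mice and 39.8 in the 6 non-lactating mice.

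On day 21 Slc39a11, Slc39a6 and Slc39a7 were lower in NZB than in C57, as Slc30a2 and Slc30a4 were, beside 5.95% of all genes. Slc39a13 was higher (0.68), beside 19.0% of all genes, a call lost without NZB day 21 mouse 1 (0.63, adjusted p = 0.0517, limma), with the compared groups alone (adjusted p = 0.0553) and with the 50 most abundant genes out of the total (0.51, adjusted p = 0.0938). The deposited scale called 12 of the 15 higher and 0 lower. Slc39a11 had 8.52, 11.4 and 11.8 non-milk CPM in NZB, against 28.7, 47.4 and 47.2 in C57, a log2 difference of -1.84 (SE 0.26, adjusted p = 2.57e-05) by limma. Slc39a6 differed by -1.51 (SE 0.20, adjusted p = 1.64e-05) and Slc39a7 by -0.86 (SE 0.20, adjusted p = 0.00291). Deposited values gave -0.48 for Slc39a11, -0.13 for Slc39a6 and 0.50 for Slc39a7. Their interactions with genotype for day 21 against non-lactating glands were also called, at -2.08, -1.28 and -1.03 (adjusted p = 0.000396, 0.00332 and 0.0124, limma), though none was called on the deposited scale, where those of Slc39a6 and Slc39a7 were above 0.

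Slc39a4, which encodes ZIP4, the intestinal zinc importer mutated in human acrodermatitis enteropathica, was also low without lactation and, in most mice, on day 8. In NZB it had 0, 0.774 and 2.66 without lactation, 20.3, 1.87 and 0.585 on day 8, 7.57, 4.45 and 14.4 on day 14, and 18.1, 45.3 and 62.3 on day 21 non-milk CPM. In C57 it had 0.932, 4.17 and 0.633 without lactation, 0.683, 0.413 and 1.23 on day 8, 42.8, 22.6 and 7.79 on day 14, and 29.3, 9.89 and 17.6 on day 21. On day 8 only NZB mouse 1 was above 2 non-milk CPM, and on days 14 and 21 all 12 mice were above 4. It rose from day 8 to day 14 in C57 by 3.58 (SE 0.76, adjusted p = 0.0114) by limma, a call lost by limma voom (adjusted p = 0.189), on the deposited scale (0.0738) and without C57 day 8 mouse 2 (0.0663) or C57 day 14 mouse 1 (0.0859). On day 21 in NZB its log2 fold over non-lactating glands was 4.36 (SE 0.76, adjusted p = 0.000122).

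**Figure D5:**
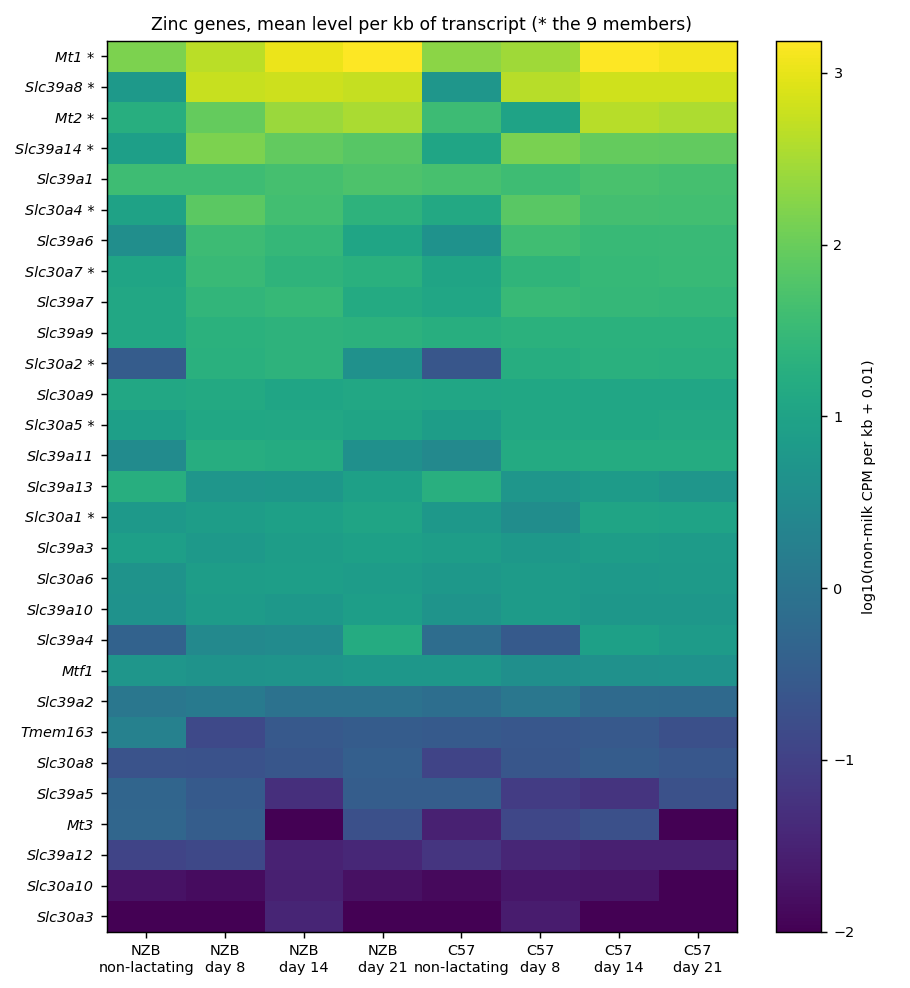
Mean non-milk CPM per kb of transcript (log10 of the value plus 0.01) of the measured zinc genes in the 8 groups, ordered by their mean, with the 9 genes of this account starred. Mt1, Slc39a8, Mt2 and Slc39a14 take the top 4 rows, and Slc30a2 had 22.3 per kb in NZB day 14 glands, against 0.319 in NZB non-lactating glands.

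For each of the 9 genes the 3 genes with the most similar levels over the 24 mice were listed by Pearson correlation of log2 levels, as a description of mice that share stages, cell content and read scale. Slc39a8 was followed by Kcnj15 (r = 0.994), Adgrf1 (0.988) and Zdhhc9 (0.986). Closest to Slc30a2 were Atp13a4 (r = 0.991), Slc28a3 (0.990) and Pdcd4 (0.989), of which Atp13a4 encodes a P-type ATPase and Slc28a3 a nucleoside transporter. Slc39a14 went with Lipa (r = 0.987), Slmap (0.983) and Muc1 (0.981), where Lipa encodes lysosomal acid lipase and Muc1 an apical mucin. Slc30a4 had Man1a2 (r = 0.981), Srpr (0.980) and Larp4 (0.974), among them a Golgi mannosidase (Man1a2) and a receptor of the signal recognition particle (Srpr). For Slc30a5 they were Mgat2 (r = 0.900), Uso1 (0.893) and Dnajc3 (0.875), and Mgat2 and Uso1 act in the Golgi. Slc30a7 had Fam63b (r = 0.974), Trip11 (0.973) and Ammecr1 (0.964). Next to Mt1 stood Gdpd2 (r = 0.946), Adam9 (0.940) and Litaf (0.937), next to Mt2 Napepld (r = 0.916), Slc39a4 (0.897) and N4bp1 (0.895), and next to Slc30a1 Fmnl2 (r = 0.883), Snx4 (0.862) and Slc39a4 (0.839). Slc39a4 was thus on the lists of Mt2 and of Slc30a1.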

How the data were processed

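Polyadenylated RNA of snap-frozen inguinal glands was sequenced from 24 mice, 3 in each of 8 groups. The deposited values are log10(CPM + 1) per gene for 2 columns of each mouse, from builds GRCm38 and mm10 per the submitters' processing notes, and the aligner is not given in the sources used here. Both columns of a mouse were averaged in CPM and counted as 1 sample, and 23 of 24 pairs agreed within 1%. The size of 1 read was fitted to the values. Among the lower nonzero values, which alone were checked, 100% were whole multiples of it (tolerance 0.05). CPM was recalculated without 19 milk protein genes. limma 3.58.1 (R 4.3.3) was fitted to log2(CPM + 1) over all 24 mice (16 residual degrees of freedom) for 16162 genes with CPM above 1 in at least 3 mice, and p-values were adjusted by Benjamini-Hochberg in each of the 18 comparisons. limma voom on the recovered reads called 5959 to 7174 genes between lactating and non-lactating glands, against 5322 to 7684. The fit was also run on simulated counts with known folds. All genes there had the same dispersion and no milk share changed, so that run does not cover the spread between these mice. The genes and lists were chosen with earlier results of these data known. The text names the 9 genes, up to 4 other zinc genes per comparison by adjusted p, up to 3 genes of each further list and 3 most similar genes. Gene positions are from GENCODE M21 on GRCm38. Other scales, filters, tests and left-out mice were tried. Python 3.11.15, numpy 2.4.6 and pandas 2.3.3 were used.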

Additional observations from a re-analysis of the deposited data

Results flagged for a closer look

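On the non-milk scale the response of Slc30a2 to day 21 differed between the genotypes in both contrasts that include that day. The NZB minus C57 difference in the effect of day 21 against non-lactating glands was -2.26 (SE 0.35, adjusted p = 0.000142, limma), and that in the change from day 14 to day 21 was -2.21 (SE 0.35, adjusted p = 0.000626). Both contrasts use the same day 21 mice. On the deposited scale they were -0.88 and -0.79 and not called (adjusted p = 0.054 and 0.0751, limma). Group sizes of 3 allowed no check for single mice far from their group by a fixed rule.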

How the results depend on the processing

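The 9 genes gave 162 folds over 18 comparisons. All 162 kept their side of the threshold, and every called fold its direction, with a pseudocount of 0.25 or either column of a mouse alone, 160 with limma voom and with no filter on low values, 158 without the 50 most abundant genes in the total, 154 with the compared groups fitted alone, 161 without C57 non-lactating mouse 3, 157 without NZB non-lactating mice 2 and 3, and 1158 of 1188 with 1 mouse left out. Folds called in neither fit changed sign in 7 cases without the 50 most abundant genes, 1 each with voom and the pseudocount, 3 with the second column of a mouse, 5 without C57 non-lactating mouse 3, 9 without NZB non-lactating mice 2 and 3, and 81 with 1 mouse left out. Leaving out 1 mouse gave 45 to 49 calls against non-lactating glands, 4 to 6 between stages, 2 to 3 between genotypes and 2 to 3 interactions. Fitting the compared groups alone gave 8 calls between stages against 5. The replicate block used the mouse numbers of the titles, which do not pair the mice: same-numbered mice correlated at -0.4 to 0.482 (median 0.00781). With the block all 162 folds kept their call, with 47, 5, 2 and 2 calls.

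The deposited scale, which keeps milk protein genes in the total, moved most values: it gave 11 calls between stages, 7 between genotypes and 11 interactions, kept the sign and call of 97 of 162 folds and changed the sign of 42, of which 35 were called on at least 1 scale. Against non-lactating glands these 35 were, in NZB on day 8, Slc30a1 -1.63, Slc30a5 -1.32, Slc30a7 -0.38 and Mt1 -0.53; on day 14 Slc30a1 -1.28, Slc30a5 -1.17 and Slc30a7 -0.69. In C57 they were Slc30a5 -1.15, Slc30a7 -0.75 and Mt1 -1.40 on day 8, Slc30a1 -0.88, Slc30a4 -0.051, Slc30a5 -1.12 and Slc30a7 -0.30 on day 14, and Slc30a1 -1.004, Slc30a4 -0.13, Slc30a5 -0.97 and Slc30a7 -0.24 on day 21. From day 14 to day 21 in NZB they were Slc30a4 0.56, Slc30a5 1.14, Slc30a7 1.18, Slc39a8 1.14 and Slc39a14 1.09. For NZB against C57 on day 21 they were Slc30a4 0.50, Slc30a5 1.01, Slc30a7 0.77, Slc39a8 1.04 and Slc39a14 1.06. In the interactions they were Slc30a1 1.32, Slc30a4 0.96 and Slc30a5 0.93 for day 21 against non-lactating glands, and Slc30a5 0.98, Slc30a7 1.12, Slc39a8 1.15 and Slc39a14 1.15 for day 21 against day 14. The 7 called on neither scale were Mt2 -0.59 on day 8 and Slc30a5 -0.032 on day 21 in NZB against non-lactating glands, Slc30a5 0.028 from day 8 to day 14 in C57, the interactions of Mt1 (-0.017, day 14), Slc30a7 (0.73, day 21) and Slc39a8 (0.76, day 21) against non-lactating glands, and that of Slc30a4 (0.64) for day 21 against day 14. By construction the share of milk reads enters these values. Depth limits Slc30a2 without lactation (4 to 16 reads per mouse) and Mt2 on day 8 in C57 (17 to 35 reads).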

Other observations

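Genes of other metals and of signals known to act on metallothioneins were counted on the non-milk scale by limma, on day 8 against non-lactating glands, where 15.1% of all genes were higher and 32.5% lower in NZB and 13.4% and 31.5% in C57. Of 8 copper genes 3 were higher and 2 lower in each genotype, against 1 higher and 6 lower in NZB and 1 and 7 in C57 on the deposited scale. Atp7b, a copper-transporting ATPase, rose by 5.39 in NZB and 4.16 in C57. Of 7 genes of iron, manganese and Golgi calcium 5 were higher and 1 lower in NZB and 4 and 1 in C57, against 3 and 3 in NZB and 2 and 4 in C57 on the deposited scale. Tfrc, the transferrin receptor, rose by 3.58 in NZB and 4.51 in C57. Of 8 zinc enzymes of the secretory pathway 2 were higher and 1 lower in each genotype, against 1 and 5 in NZB and 0 and 6 in C57 on the deposited scale, and Enpp3, an ectonucleotide pyrophosphatase, rose by 3.60 in NZB and 2.02 in C57 (1.70 and 0.092 on the deposited scale).

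Of 7 glucocorticoid response genes 4 were higher and 1 lower on day 8 in NZB and 5 and 0 in C57, against 0 and 5 in NZB and 1 and 4 in C57 on the deposited scale. Of 9 genes of the interleukin 6 and Stat3 response 3 were higher and 3 lower in each genotype, against 1 and 5 in NZB and 1 and 6 in C57 on the deposited scale. From day 8 to day 14 in C57 0 genes of these last 2 lists were called, beside 2.23% of all genes. At that share lists this short can have 0 calls, so the count does not tell whether these signals moved. The interleukin 6 and Stat3 list summed to 943 to 982 non-milk CPM on day 8 and 1049.5 to 1834 on day 14 in C57, without overlap. The glucocorticoid list summed to 1581 to 1709 and 1245 to 1679, with overlap. In NZB 1 of the 9 interleukin 6 and Stat3 genes was called higher on this step (0 on the deposited scale), beside 0.532% of all genes. From day 8 to day 14 in C57 Slc31a1, a copper importer, rose by 0.90 and Tfrc fell by 1.34, the single calls of the copper and other metal lists.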
